A study of Caenorhabditis elegans with 6 samples.

Results

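The fbxa genes are 222 of the 46748 genes in the count table, chosen by a WormBase symbol that starts with fbxa-. Of these, 170 are annotated as protein-coding and 52 as pseudogenes. All 6 libraries were made from whole hermaphrodites of the wild-type Caenorhabditis elegans strain N2, collected 5 days past the L4 stage, the last larval one. In 3 libraries the labels name T25B9.1 as the perturbation, that is, feeding RNAi against this predicted glycine C-acetyltransferase of threonine breakdown, given through bacteria that produce double-stranded RNA of the gene as food. In the other 3 they name L4440, the plasmid without an insert. A second label field names the T25B9.1 RNAi for all 6 and was not used for grouping.

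F-box proteins bring substrates to SCF ubiquitin ligases. In these complexes a cullin and the RING protein RBX-1 carry the catalytic part, and a Skp1-related adaptor, called SKR in the worm, holds the F-box. The worm has a far larger set of F-box genes than mammals, many of them in tandem arrays, and most have no assigned substrate. Members of the fbxa class pair the F-box with a domain also found in FOG-2, a germline protein needed for sperm formation in hermaphrodites. FBXA-75 and FBXA-158 have been described as partners of the cullin CUL-6 and of SKR-3, SKR-4 and SKR-5 in the response to intracellular pathogens and in heat tolerance.

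Libraries held 25480225 to 38621940 counts. The targeted gene T25B9.1 was higher, not lower, in the libraries labelled with its RNAi, with 219, 317 and 430 counts against 90, 92 and 132 in those labelled L4440 (log2 fold change 1.73, SE 0.245, edgeR adjusted p = 0.00483), so each direction below is that of the labels. The labels do not say whether libraries came from separate cultures, and the p-values measure only the spread between these samples. Defining markers of intestine, muscle, neurons, epidermis, germline, oocytes and embryos were all detected. Among the fixed marker lists, the sum of the 2 pharyngeal muscle genes did not overlap between groups, at 28.6 to 37.5 CPM in libraries labelled T25B9.1 and 12.99 to 27.2 in those labelled L4440. CPM are counts per 1000000 of the library's total over the genes tested, corrected with TMM factors. Neither of these pharyngeal genes passed alone (edgeR adjusted p = 0.111 for myo-1 and 0.353 for myo-2), and the groups overlapped in myo-2. The sum of the 5 intestinal genes was 170 to 188 CPM in libraries labelled T25B9.1 and 186 to 211 in those labelled L4440, which overlap. Of these 5, only the intermediate filament gene ifb-2 passed the test, and it was higher, with 25.1 ± 1.63 CPM under the T25B9.1 label and 15.0 ± 0.530 under the L4440 label (SD, n = 3 each; edgeR adjusted p = 0.000771). Of the rest, act-5 had 93.3 to 110 CPM under the T25B9.1 label and 112 to 137 under the L4440 label (edgeR adjusted p = 0.127). For ges-1 the values were 37.1 to 41.9 and 45.5 to 48.3 CPM in that order (edgeR adjusted p = 0.0639). Both were lower without overlap, and elt-2 and elt-7 had log2 fold changes of -0.11 and 0.02. The part of these differences in the results below was not tested, and in whole animals fewer cells of a type and less RNA per cell cannot be told apart.

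Most fbxa genes gave some reads, and about 3 in 5 gave enough to be tested. At least 1 count was found for 206 of the 222 genes. At least 10 counts in each of the 6 libraries were found for 122, and 135 (60.8%) passed edgeR's filter on low counts. For comparison, 65.5% of all protein-coding genes and 20.3% of all pseudogenes in the table passed it. Within fbxa the annotation class made little difference to this share, with 104 of 170 protein-coding genes (61.2%) and 31 of 52 pseudogenes (59.6%) tested. Of the related fbxb genes 87.6% passed, and of the fbxc genes 58.9%. The 16 genes with no read in any library cover 10 protein-coding genes and 6 pseudogenes. In a single library, 0 counts allow a level of up to 0.0746 to 0.120 CPM (3 counts, counting error only). Reads shared with an overlapping gene model may not have been counted, and then this bound does not hold. Of the 16 genes, 13 have no exon overlap with another gene model. Both gene models that carry the symbol fbxa-41, on chromosome X at 1940632 to 1942199 and at 1949161 to 1950728, were among the 16. Their exons come to the same length of 1011 bases, and reads shared between near-identical copies may not have been counted.

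Levels within the family spanned a 1344-fold range among the tested genes, compared as CPM per kilobase of exon. The median of the tested genes was 1.90 CPM per kilobase, against 9.34 for all genes tested. One gene stood far above the others. In fbxa-215, on chromosome IV at 13665364 to 13666909, the libraries labelled T25B9.1 had 413, 368 and 395 CPM and those labelled L4440 had 401, 388 and 417. These values overlap, and this single gene made up 34.1% of all reads of the family. Its log2 fold change was -0.04 (SE 0.0771, edgeR adjusted p = 0.912), with a 95% interval of -0.21 to 0.13.

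The next gene by level, fbxa-210, had 56.1 CPM per kilobase in libraries labelled T25B9.1 and 58.2 in those labelled L4440. It lies on chromosome V beside fbxa-107, the sixth by level, which had 22.9 CPM per kilobase under the T25B9.1 label and 24.1 under the L4440 label. Between them, fbxa-101 on chromosome I had 44.9 CPM per kilobase under the T25B9.1 label and 45.6 under the L4440 label. For fbxa-206 on chromosome V these levels were 36.9 under T25B9.1 and 40.6 under L4440. For fbxa-60 on chromosome III they were 26.99 under T25B9.1 and 34.5 under L4440. These 6 genes of highest level per kilobase together held 54.3% of the family's reads, and none of them passed the test. Among pseudogenes the highest was fbxa-123 on chromosome I, the eleventh of all fbxa genes, at 19.6 CPM per kilobase in libraries labelled T25B9.1 and 21.7 in those labelled L4440. At the other end, 54 of the 135 tested genes had a mean under 50 counts, and 13 had a mean of at least 500.

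**Figure D1:**
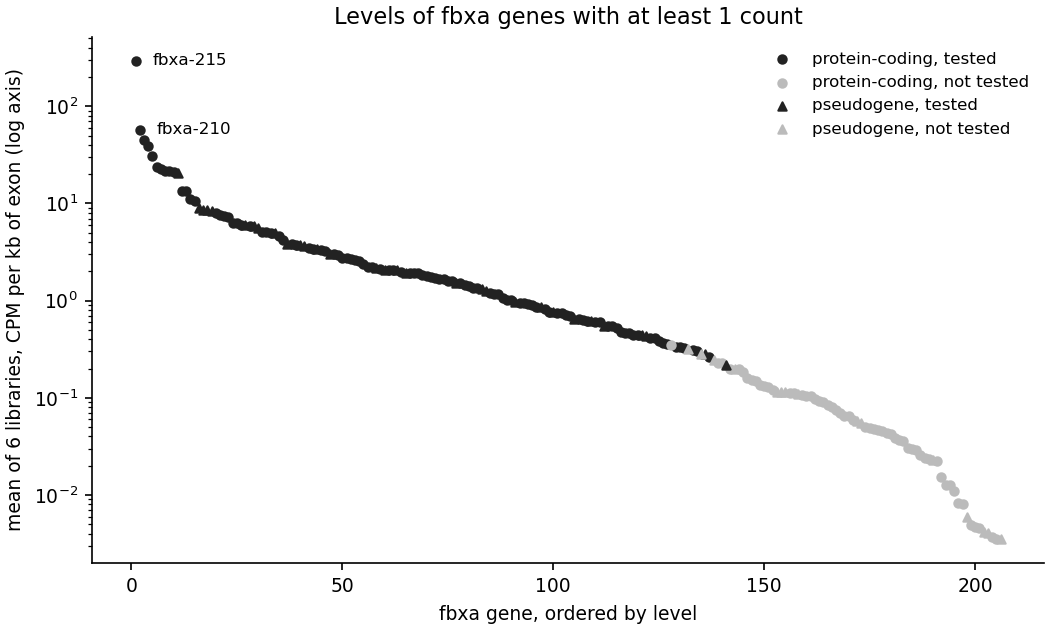
Mean level over the 6 libraries of the 206 fbxa genes with at least 1 count, in CPM per kilobase of exon on a log axis, ordered from high to low. Circles are protein-coding genes and triangles pseudogenes, with tested genes in black and untested ones in grey. A reader should see fbxa-215 alone at the top, and the first pseudogene, fbxa-123, in the eleventh place.

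Few fbxa genes differed between the label groups. By edgeR's quasi-likelihood test, 3 of 135 passed an adjusted p of 0.05, or 2.22%, against 3.42% of all 13494 genes tested. Lower in libraries labelled T25B9.1 were 2, fbxa-141 and fbxa-27, where 2.29% of all genes were lower. Higher was 1, fbxa-24, where 1.13% of all genes were higher. The share of called fbxa genes was thus no larger than the background. At an unadjusted p under 0.05 there were 17 lower genes (12.6%, against 7.29% of all genes) and 2 higher ones (1.48%, against 5.79%).

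The largest fall was that of fbxa-141, a single gene on chromosome X at 14511248 to 14512917, minus strand, with no other fbxa gene within its cluster distance. The libraries labelled T25B9.1 had 38, 40 and 66 counts, or 1.17, 1.605 and 1.86 CPM. Those labelled L4440 had 104, 77 and 134 counts, or 2.99, 3.08 and 3.33 CPM. The groups did not overlap, and the gene was 2.03-fold lower in libraries labelled T25B9.1 (log2 fold change -1.02, SE 0.182, edgeR adjusted p = 0.0105). The nearest tested fbxa gene on this chromosome, fbxa-179, had a log2 fold change of -0.0045. The call of fbxa-141 held in each of 13 alternatives, at adjusted p-values of 2.61e-05 to 0.0483.

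The other gene that passed as lower, fbxa-27, was part of the largest array of the family on chromosome III. This gene lies at 1342969 to 1344744 on the plus strand. It had 62, 61 and 70 counts in libraries labelled T25B9.1 and 121, 94 and 160 in those labelled L4440. The levels were 2.11 ± 0.296 CPM under the T25B9.1 label and 3.74 ± 0.249 under the L4440 label (SD, n = 3 each), with no overlap between groups. The difference was 1.79-fold (log2 fold change -0.84, SE 0.152, edgeR adjusted p = 0.0114). Without L4440 replicate 3 the edgeR adjusted p was 0.0594, and without T25B9.1 replicate 1 it was 0.0668. Its exons overlap those of Y82E9BL.6 on the other strand by 42 bases, and the library kit does not mark strand.

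Its neighbour fbxa-26 had 3.20, 2.97 and 2.31 CPM in libraries labelled T25B9.1 and 4.12, 4.24 and 4.28 in those labelled L4440. The groups did not overlap here either, and the gene did not pass (log2 fold change -0.58, SE 0.151, edgeR adjusted p = 0.0716). On the other side, fbxa-25 had a log2 fold change of -0.22 (edgeR adjusted p = 0.906).

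The gene that rose, fbxa-24, lies on chromosome II at 3816526 to 3818238, plus strand. It had 65, 45 and 51 counts in libraries labelled T25B9.1 against 21, 24 and 27 in those labelled L4440. The levels were 1.75 ± 0.287 CPM under the T25B9.1 label and 0.746 ± 0.189 under the L4440 label (SD, n = 3 each), so the groups were apart and the gene was 2.38-fold higher in libraries labelled T25B9.1 (log2 fold change 1.25, SE 0.231, edgeR adjusted p = 0.0128). Without L4440 replicate 3 the edgeR adjusted p was 0.0646, and without T25B9.1 replicate 1 it was 0.0635. The pseudogene fbxa-146 beside it, on the minus strand, had a log2 fold change of 0.22 (edgeR adjusted p = 0.633).

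Other large differences at a mean of 50 counts or more did not pass. On chromosome III, fbxa-42 had 1.81, 1.68 and 1.83 CPM in libraries labelled T25B9.1, against 3.08, 2.12 and 3.41 in those labelled L4440 (log2 fold change -0.71, SE 0.190, edgeR adjusted p = 0.0831). Its groups did not overlap, and L4440 replicate 2 lay closest to the other group. Without that library the edgeR adjusted p was 0.0257, and with any other library left out it was 0.132 to 0.339. On chromosome V, fbxa-72 had 2.53 ± 0.362 CPM under the T25B9.1 label and 3.96 ± 0.771 under the L4440 label (SD, n = 3 each; log2 fold change -0.63). On chromosome II, fbxa-163 had 1.56 ± 0.159 CPM under the T25B9.1 label and 2.39 ± 0.394 under the L4440 label (SD, n = 3 each; log2 fold change -0.60). The abundant fbxa-60 had 33.6, 36.4 and 29.2 CPM in libraries labelled T25B9.1 and 37.4, 44.3 and 45.1 in those labelled L4440. With a log2 fold change of -0.36 (SE 0.0996) it had an edgeR adjusted p of 0.0997, and of 0.0230 without L4440 replicate 1. With any other library left out the edgeR adjusted p of fbxa-60 was 0.0572 to 0.329.

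**Figure D2:**
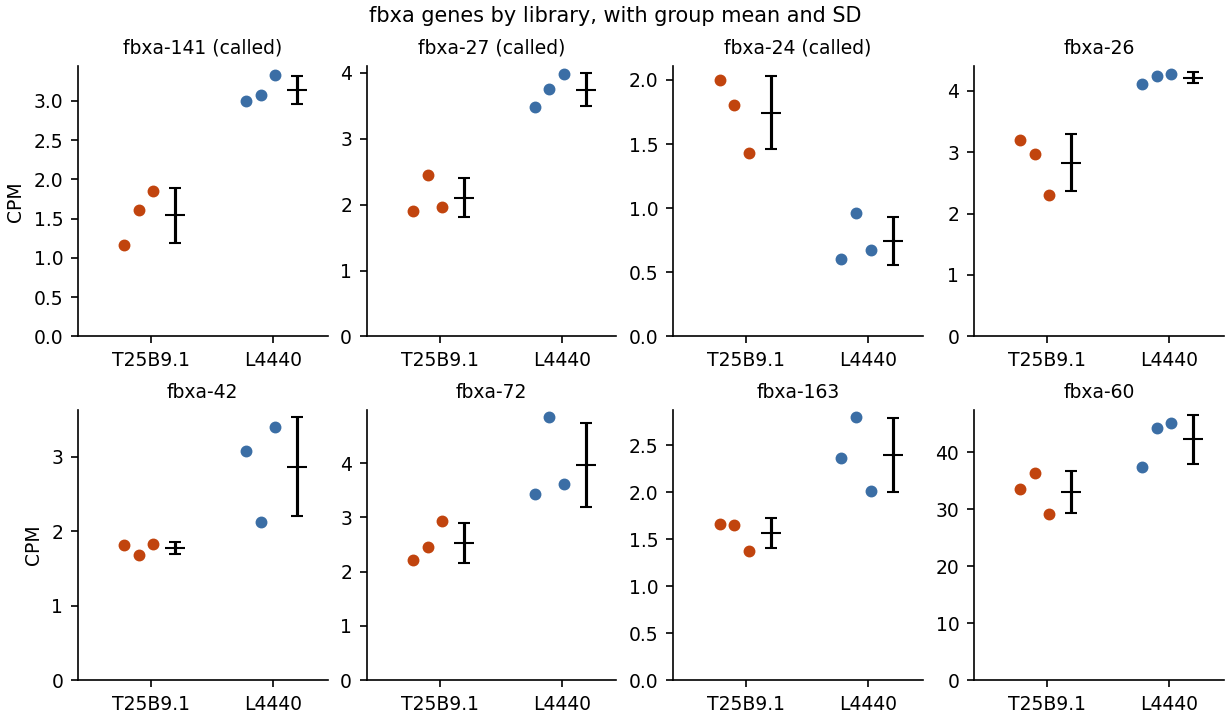
Level in CPM of 8 fbxa genes in each library, with libraries labelled T25B9.1 in orange on the left of each panel and those labelled L4440 in blue on the right; bars give the mean and SD of 3 libraries. The first 3 panels are the genes that passed the test, and in all 8 panels but that of fbxa-24 the T25B9.1 libraries lie lower.

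The described partners of CUL-6 were close to the detection limit. In fbxa-158 there were 3, 7 and 7 counts in libraries labelled T25B9.1 against 10, 14 and 14 in those labelled L4440, and it did not pass the filter. Fitted with no filter on low counts its log2 fold change was -1.06, with an SE of 0.448 and an edgeR adjusted p of 0.296. In fbxa-75 the libraries labelled T25B9.1 had 0, 1 and 2 counts and those labelled L4440 had 0, 1 and 0, so no difference was detectable at this depth. Of their adaptors, skr-3 and skr-4 were far better measured than skr-5. The adaptor gene skr-4 fell to 19.0 ± 1.07 CPM in libraries labelled T25B9.1, against 31.0 ± 2.85 in those labelled L4440 (SD, n = 3 each; log2 fold change -0.71, edgeR adjusted p = 0.00147). The paralog skr-3 had 22.4 ± 1.04 CPM under the T25B9.1 label and 28.2 ± 2.90 under the L4440 label (SD, n = 3 each; edgeR adjusted p = 0.0891). In skr-5 there were 21, 12 and 21 counts in libraries labelled T25B9.1 and 20, 26 and 25 in those labelled L4440, which overlap (log2 fold change -0.31, SE 0.290, edgeR adjusted p = 0.757). The cullin gene cul-6 itself had 4.42 ± 0.264 CPM under T25B9.1 and 5.74 ± 0.697 under L4440 (SD, n = 3 each; log2 fold change -0.37, edgeR adjusted p = 0.227).

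Small differences in the family leaned one way. Of the 135 tested fbxa genes, 96 (71.1%) had a negative log2 fold change, against 47.4% of all genes tested, and the median was -0.10, against 0.0080 for all genes. The median was -0.18 without L4440 replicate 1, and 88 to 110 genes were negative when any 1 library was left out. The label groups did not overlap in 35 genes (25.9%), against 17.9% of all genes tested. In 31 genes (23.0%) all libraries labelled T25B9.1 lay below all those labelled L4440, where this held for 9.6% of all genes. In 4 genes (2.96%) they lay above, against 8.29% of all genes. Besides fbxa-24 these 4 were fbxa-146, fbxa-71 and fbxa-212. The summed level of all fbxa genes was 1155, 1114 and 1120.2 CPM in libraries labelled T25B9.1 and 1173, 1191 and 1235 in those labelled L4440. The sums did not overlap, and their means were 1129.6 ± 22.1 CPM under the T25B9.1 label and 1199.7 ± 32.0 under the L4440 label (SD, n = 3 each).

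Most single genes were measured well enough to bound the difference. The 95% interval of the fold change lay within 2-fold in either direction for 112 of 135 fbxa genes (83.0%), against 87.8% of all genes tested. It lay within 1.5-fold for 66 (48.9%), against 65.4% of all genes. The median standard error was 0.176 on the log2 scale for fbxa genes and 0.120 for all genes, at median counts of 67.2 and 421.

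**Figure D3:**
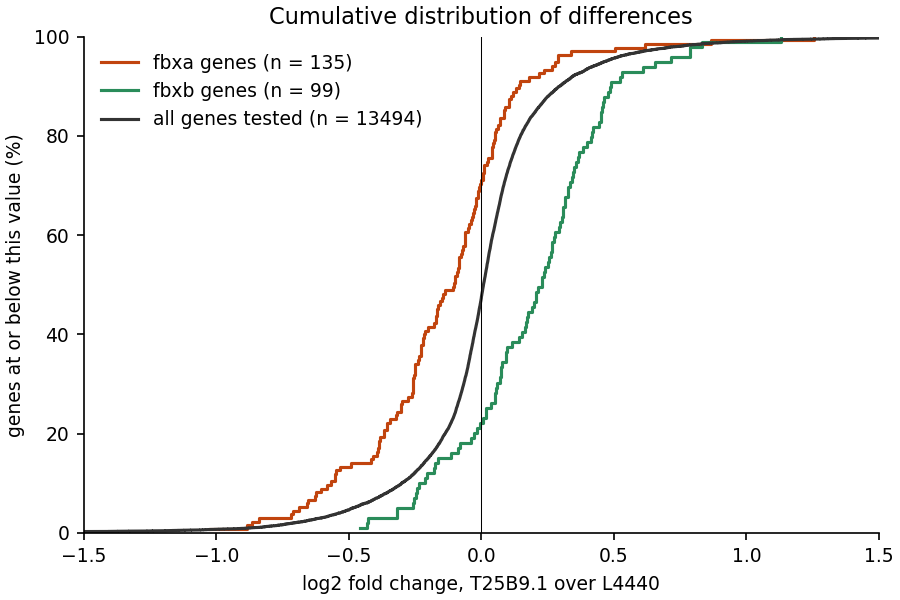
Cumulative share of genes at or below each log2 fold change, libraries labelled T25B9.1 over those labelled L4440, for 135 fbxa genes, 99 fbxb genes and all 13494 genes tested. The fbxa curve crosses 0 at 71.1% and the curve of all genes at 47.4%, while the fbxb curve lies to the right of both over most of the range.

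Protein-coding members and pseudogenes had different medians. Of 104 tested protein-coding fbxa genes, 79 were negative, with a median log2 fold change of -0.18. Of 31 tested pseudogenes 17 were negative, with a median of -0.0081, and none passed by edgeR (1 at an unadjusted p under 0.05). The same medians over all genes of the table were 0.0069 for protein-coding genes and 0.0481 for pseudogenes. At a mean of 50 counts or more the medians were -0.16 for 62 protein-coding fbxa genes and -0.0081 for 19 pseudogenes. No test of this difference was made. Exons of 39 fbxa genes overlap those of another gene model, 26 of them among the tested genes. Without those genes the median over the other 109 tested ones was -0.11, with 80 negative.

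The family is concentrated on chromosomes III and V, which carry 73 and 92 of the 222 genes. Chromosomes I, II, IV and X carry 13, 21, 6 and 17. Neighbouring members at most 20 kb apart formed 17 clusters of at least 3 genes, 3 of them on chromosome III and 9 on chromosome V, with none on chromosome IV. Together the clusters held 138 genes. In 6 clusters all genes lie on one strand. Of the 84 genes outside clusters, 56 had no other member within 20 kb and the rest formed 14 pairs. The median log2 fold change was -0.16 for the 81 tested genes in clusters and -0.08 for the 54 tested genes outside them, and the difference was not tested.

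The largest cluster spans 113 kb of chromosome III, at 1236015 to 1349450, and holds 33 genes, from the pseudogene fbxa-21 to fbxa-25. Of these, 26 are protein-coding and 21 were tested. No gene of it held more than the 9.69% of its reads that fell to fbxa-26. Its summed level was 32.8, 34.1 and 30.7 CPM in libraries labelled T25B9.1 and 38.3, 38.7 and 43.3 in those labelled L4440, without overlap. Of its tested genes 16 were negative, and 1 passed, fbxa-27.

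The other clusters on chromosome III held 12 genes around fbxa-60, at 933422 to 963833, and 17 genes from fbxa-8 to fbxa-66, at 2217173 to 2314035. The summed level of the first was 64.9 ± 7.10 CPM under the T25B9.1 label and 79.1 ± 8.53 under the L4440 label (SD, n = 3 each), and the libraries overlapped. That of the second was 8.80, 7.94 and 7.90 CPM in libraries labelled T25B9.1 and 9.27, 9.85 and 10.1 in those labelled L4440, without overlap. In that cluster, fbxa-71 had the other sign from fbxa-42, with 44, 21 and 48 counts under the T25B9.1 label and 23, 15 and 28 under the L4440 label (log2 fold change 0.86, SE 0.241, edgeR adjusted p = 0.0996). Over all of chromosome III the median log2 fold change of 47 tested fbxa genes was -0.26, and 35 were negative. Protein-coding genes of the chromosome as a whole had a median of 0.0076. The 88 tested fbxa genes of the other chromosomes had a median of -0.07, with 61 negative.

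On chromosome V the median log2 fold change of 52 tested fbxa genes was -0.12, with 39 negative. The most abundant cluster of all, fbxa-107 to fbxa-212 at 18123939 to 18136022, had 115, 108 and 109 CPM in libraries labelled T25B9.1 and 109.6, 119 and 115 in those labelled L4440. These overlap, and its 4 genes, all on the plus strand, were all tested. The 11 genes from fbxa-44 to fbxa-90 include 4 pseudogenes and 4 genes with no read, and 86.6% of the cluster's reads came from fbxa-206. The 8 genes from fbxa-136 to fbxa-133 had 1 tested gene. On chromosome II the 9 genes from fbxa-161 to fbxa-160, all on the minus strand and with fbxa-158 and fbxa-163 among them, had 4.46, 4.69 and 4.84 CPM in libraries labelled T25B9.1 and 5.79, 6.36 and 6.32 in those labelled L4440. Again the groups did not overlap.

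On chromosome I, a run of 3 pseudogenes at 12005177 to 12009625 was tested in full, with summed levels of 29.3 ± 1.53 CPM under the T25B9.1 label and 30.9 ± 1.47 under the L4440 label (SD, n = 3 each). On chromosome X, no gene of either cluster was tested. Of 16 clusters with any read, the mean sum was lower in libraries labelled T25B9.1 in 14. In 5 the sums of the label groups did not overlap, all of them lower. Of all single genes tested 9.6% lay lower without overlap and 17.9% did not overlap in either direction. A cluster sum pools several genes, so these shares over single genes are not a matched background for it. Of these 5 sums, 86.6% of that from fbxa-44 to fbxa-90 was fbxa-206, and 84.6% of that from fbxa-116 to fbxa-113 was fbxa-114. In the first of these the highest T25B9.1 sum was 50.7 CPM and the lowest L4440 sum 51.4. In the second they were 27.3 and 27.9 CPM, so both gaps were small. In 10 of the 16 clusters with any read 1 gene held over 50% of the reads.

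**Figure D4:**
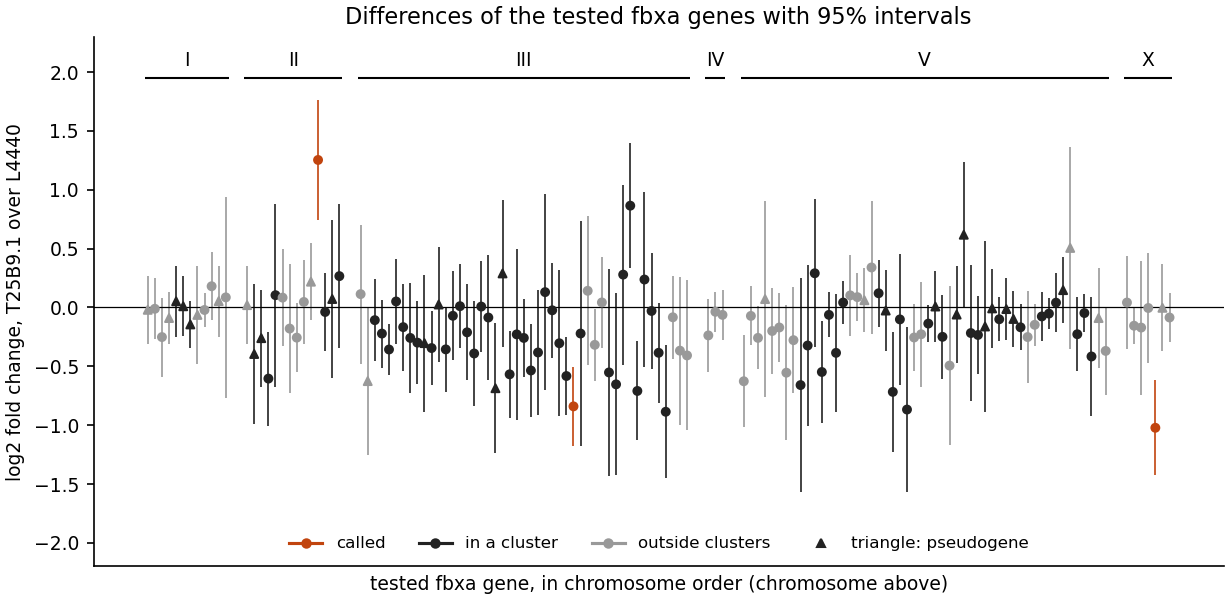
Log2 fold change of each of the 135 tested fbxa genes, libraries labelled T25B9.1 over those labelled L4440, with 95% intervals, in chromosome order. Orange marks the 3 genes that passed, black the genes in clusters and grey the others, and triangles are pseudogenes; on chromosome III 35 of 47 points lie below 0.

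**Figure D5:**
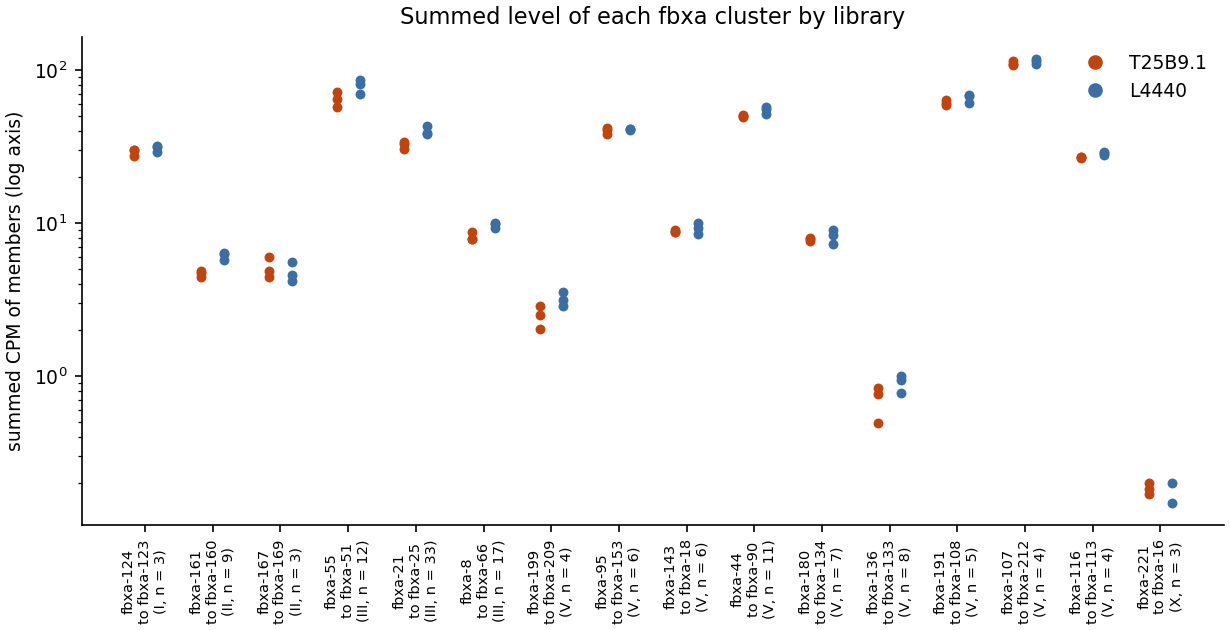
Summed CPM of the fbxa genes of each cluster in every library, on a log axis, with libraries labelled T25B9.1 in orange on the left and those labelled L4440 in blue on the right, for the 16 clusters with any read; a library with a sum of 0 is not drawn. In 5 clusters, all with lower sums under the T25B9.1 label, the groups do not overlap.

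Other families of substrate adaptors were set beside fbxa. Over all genes tested 1.13% were called higher and 2.29% lower, and at an unadjusted p under 0.05 5.79% were higher and 7.29% lower. Of 99 tested fbxb genes, 77 were positive and 22 negative, where 47.4% of all genes were negative, with a median log2 fold change of 0.23, and none passed by edgeR (10 higher and none lower at an unadjusted p under 0.05). The fbxb gene with the smallest p, fbxb-115, had 42, 27 and 28 counts in libraries labelled T25B9.1 and 19, 7 and 22 in those labelled L4440 (edgeR adjusted p = 0.0742). In the fbxc class 33 genes were tested with a median of 0.13, and fbxc-58 fell to 6.62 ± 0.591 CPM in libraries labelled T25B9.1, against 10.8 ± 1.90 in those labelled L4440 (SD, n = 3 each; edgeR adjusted p = 0.0224). Of 22 tested math genes, whose MATH domain is used by adaptors of another cullin, math-4 and math-45 rose, with log2 fold changes of 0.93 and 0.73. Of 40 bath genes none passed by edgeR (1 at an unadjusted p under 0.05), and the median was -0.0019. The difference between the fbxa and fbxb medians was not tested.

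The core of the ligase gave 1 call. The SCF list holds the cullins cul-1 and cul-6, RBX proteins, SKR adaptors and neddylation factors, and 29 of its genes were tested. By edgeR skr-4 was lower and none was higher, where 2.29% of all genes tested were lower and 1.13% higher. At an unadjusted edgeR p under 0.05, 3 were lower and 1 was higher, against 7.29% and 5.79% of all genes. The median log2 fold change of the list was 0.0077. The 7 conserved F-box genes outside the worm-expanded classes, among them lin-23, sel-10 and mec-15, gave no call by edgeR (2 at an unadjusted p under 0.05, mfb-1 and mec-15). Both of these were lower without overlap between groups. Of all genes tested 7.29% were lower at that unadjusted edgeR p and 9.6% lay lower without overlap. The relatives of fbxa that carry another name, fog-2 and ftr-1, had log2 fold changes of -0.03 (SE 0.0636) and -0.05 (SE 0.0879). Of 19 tested pals genes, another worm-expanded family tied to the intracellular pathogen response, none passed by edgeR (4 at an unadjusted p under 0.05), with a median of -0.04.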

How the data were processed

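Counts of reads per gene were used as deposited. The submitters' processing notes name featureCounts 1.4.6-p4, STAR 2.4.1d, bcl2fastq 1.8.4 and build WBcel235. The TruSeq v2 kit named in the labels' protocols does not mark strand. The sources used here do not say how reads of more than 1 gene were treated, so values of near-identical copies and overlapping genes are uncertain. A deposited table of length-scaled values was not used.

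Of the fbxa symbols, 170 came from a table of gene identifiers and 52 pseudogenes from RefSeq locus tags with the same position in Ensembl release 115, of the same build. RefSeq's fbxa-40 is the model named fbxa-41 here. Libraries were grouped by the perturbation label and numbered in accession order.

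The test was edgeR 4.0.16 in R 4.3.3 (quasi-likelihood, robust, TMM factors, filterByExpr with a minimum count of 10) over 13494 genes, with Benjamini-Hochberg adjustment at 0.05. Each standard error was taken as the absolute log2 fold change over the root of F. Lengths are those of all annotated exons joined. Within a group, library pairs had a chi-square of 6.18 to 40.8 per degree of freedom, so none was the same library sequenced again. The lowest was that of T25B9.1 replicates 1 and 3, and all others were at least 21.7. Whether libraries shared RNA or a culture cannot be told from these values. With 3 libraries against 3, no exact permutation test can reach a p below 0.1, and none was run.

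Members and lists were chosen with earlier results of these data known. Genes named by rule were those past the threshold, fbxa-75 and fbxa-158, the 6 of highest level per length, the 6 of largest change among those averaging 50 counts or more, and up to 3 of smallest p from each partner list. The genes fbxa-25, fbxa-41, fbxa-66, fbxa-71, fbxa-114, fbxa-123, fbxa-146, fbxa-179, fbxa-212 and skr-5, and those that bound a cluster, were named after their values were seen. So were the markers ifb-2, act-5, ges-1, elt-2, elt-7, myo-1 and myo-2, which come from the fixed marker lists. Alternatives were RLE and upper-quartile factors, other filters, DESeq2 1.42.0, limma-voom 3.58.1, a block of consecutive library numbers, and leaving out each library.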

Additional observations from a re-analysis of the deposited data

How the results depend on the processing

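With RLE or upper-quartile factors and by limma-voom the calls were the same 3 genes. With no filter on low counts 206 fbxa genes were tested, with 2 higher and 7 lower in libraries labelled T25B9.1; the added calls were fbxa-26, fbxa-42, fbxa-60, fbxa-66, fbxa-71 and fbxa-72, and the cause was not tested. With a mean of at least 50 counts 81 were tested and 0 were higher, since fbxa-24 lay below that mean. By DESeq2 the family's median log2 fold change was -0.14, and fbxa-60 was added to the calls. When 1 library was left out, 133 to 139 genes were tested, 0 to 2 were higher and 1 to 3 lower, and the median was -0.18 to -0.0928. Without T25B9.1 replicate 2, fbxa-71 was the second higher gene. The numbers in the titles run in pairs across the groups, and the labels state no pairing, so the main test was unpaired. Deviations of such pairs correlated at -0.0514, 0.124 and 0.222, and those of other pairs across the groups at -0.213 to 0.0613. Whether replicates shared a batch was not tested. With a replicate block of consecutive numbers 1 fbxa gene was higher and 3 lower, fbxa-42 being added. Over all genes 597 passed with that block, against 461 in the main test. Gaps of 10 and 50 kb gave 18 and 20 clusters. The planned check of sequence shared between members was not run, since no genome sequence was used here. The 71 genes with reads that were not tested fell below the filter on low counts. For them low expression, limited depth and uncounted shared reads cannot be told apart.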
